A study of Mus musculus with 7 samples.

Results

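DNA methylation was examined at the differentially methylated regions (DMRs) assigned to genes of the interleukin-1 (IL-1) family in mouse airway macrophages (AMs). A DMR is a stretch of neighbouring CpGs, the cytosine-guanine steps at which mammalian DNA is methylated, where the average level differed between 2 genotypes. The members were the rows of the deposited DMR table whose gene symbol was Il1a, Il18, Il1r1 or Il1rl2, which gave 4 DMRs of 1926, 1 for each gene. They were picked from regions already called as different, so the genotype difference at each of them is a description and was not tested again.

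The series held 3 samples of AMs from Scnn1b-Tg mice and 4 samples from wild-type (WT) mice, profiled by whole-genome bisulfite sequencing of tagmented DNA (tWGBS), in which unmethylated cytosines are read as thymine. Scnn1b-Tg mice carry the sodium channel subunit Scnn1b under the club cell secretory protein promoter, a promoter of airway epithelial cells, and their airways fill with mucus. WT mice had the same C57BL/6 background without the transgene, and for sorting the study's methods give female mice 6 weeks old. AMs had been sorted from digested lung as CD45+ Siglec-F+ CD11c+ cells. Of the genes for these surface proteins, only Itgax, which encodes CD11c, carried a DMR, with a level of 0.459 in Scnn1b-Tg cells and 0.707 in WT cells, whereas Ptprc and Siglecf had none. A list of called regions gives no level elsewhere, so the cell type could not be checked further.

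Methylation levels are fractions from 0 to 1, and the table gives 1 authors' mean per genotype and region. Values per sample and read depth are not given in it, so no SD, interval or test belongs to the levels below, and whether samples of both genotypes overlapped is unknown. Neither level column carries a genotype in its header. The first was taken as Scnn1b-Tg from the study's own description, on which every direction rests. The cells were measured in bulk, and a changed level within each cell cannot be told apart from a changed mixture of cells.

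The IL-1 family comprises secreted alarm signals and their receptors. IL-1α, the product of Il1a, is released by injured cells and acts through the receptor IL-1R1 to drive inflammation, including the recruitment of neutrophils to the airways. IL-18 is stored as a precursor in macrophages and epithelium, is cut to its active form by caspase-1, and drives interferon gamma production by lymphocytes. Il1rl2 encodes the receptor for the IL-36 cytokines, which act mainly at epithelial barriers. Methylation of CpGs near promoters and enhancers usually goes with lower use of those elements, although the relation varies from site to site.

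The sequences of 3 of the regions, those of Il1a, Il18 and Il1r1, are shown because each level is an average over the few CpGs within them, marked in capitals. They are read from the plus strand of the GRCm38.p6 reference (the assembly behind mm10), 5′ to 3′, and run 1 base past the end in the table so that the last CpG is whole. Il1a, which is transcribed from the minus strand, lay at chr2:129308461-129308662, Il18 at chr9:50570380-50570619 and Il1r1 at chr1:40271742-40271865.
Il1a: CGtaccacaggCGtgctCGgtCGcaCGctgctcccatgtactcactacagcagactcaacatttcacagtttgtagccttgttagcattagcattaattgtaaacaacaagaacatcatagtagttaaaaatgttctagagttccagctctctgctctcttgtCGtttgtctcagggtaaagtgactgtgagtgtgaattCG
Il18: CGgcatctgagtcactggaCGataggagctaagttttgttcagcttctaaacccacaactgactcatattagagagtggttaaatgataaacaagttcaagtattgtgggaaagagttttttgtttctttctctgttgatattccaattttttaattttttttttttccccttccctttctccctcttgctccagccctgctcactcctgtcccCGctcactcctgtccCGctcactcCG
Il1r1: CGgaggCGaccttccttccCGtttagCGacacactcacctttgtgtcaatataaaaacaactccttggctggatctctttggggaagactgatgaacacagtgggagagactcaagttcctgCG

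Methylation was reduced in Scnn1b-Tg AMs at the DMRs of Il1a, Il1r1 and Il1rl2 and increased at that of Il18. The count of 3 lower DMRs of 4 stands beside 72.9% lower among all 1926 DMRs, a share set by the same contrast, so nothing is read from it. Absolute differences ran from 0.199 to 0.296 with a median of 0.252, beside a median of 0.233 over all DMRs. The absolute difference was at least 0.2 in 3 of the 4, all but Il1r1, beside 78.1% of all DMRs. The starting levels in WT AMs were far apart, from 0.307 at Il18 to 0.884 at Il1rl2.

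**Figure D1:**
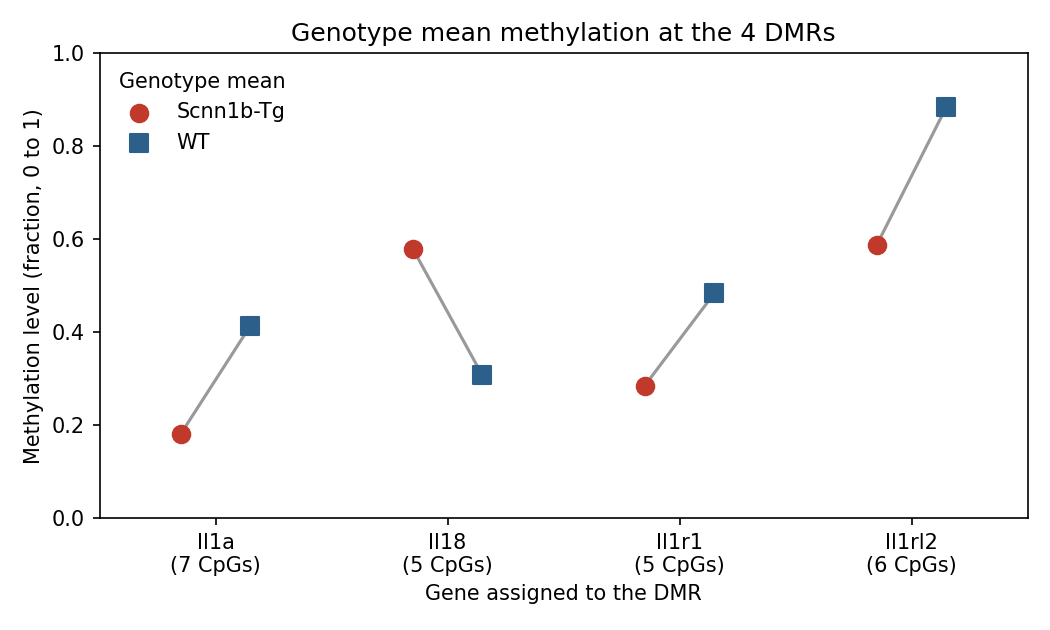
The vertical axis gives the authors' mean methylation level (fraction) of each DMR in Scnn1b-Tg AMs (circles) and WT AMs (squares), with no error because the table has 1 mean per genotype. Il1a (0.181 against 0.414), Il1r1 (0.285 against 0.484) and Il1rl2 (0.587 against 0.884) were lower in Scnn1b-Tg AMs, and Il18 (0.579 against 0.307) was higher.

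Il1a was the least methylated of the 4 in Scnn1b-Tg AMs. Its DMR of 201 bp and 7 CpGs had a deposited level of 0.181 in Scnn1b-Tg cells and 0.414 in WT cells, a difference of -0.233 or -56.2% of the WT level. The difference was of ordinary size, at position 967 of 1926 when all DMRs are ordered by absolute difference. The levels were low for a region of reduced methylation. Among the 1404 lower DMRs, 10 had a smaller Scnn1b-Tg level and 19 a smaller WT level, and the medians of these DMRs were 0.570 in Scnn1b-Tg cells and 0.829 in WT cells. At Il1a the mean was intermediate in WT cells and closer to the unmethylated end in Scnn1b-Tg cells. Most lower DMRs had a high mean in WT cells and an intermediate one in Scnn1b-Tg cells.

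The authors' annotation put the Il1a region in the promoter class, within 1 kb of a transcription start site (TSS). The class as counted below is wider than that, since it also holds regions labelled 2-3 kb from a TSS, such as that of Itgax. Lower DMRs made up 50.2% of the 211 promoter DMRs. Of the 106 lower ones, Il1a had the 38th largest absolute difference and the 3rd largest loss relative to the WT level. The medians of these 106 were 0.451 in Scnn1b-Tg cells and 0.703 in WT cells, below those of all lower DMRs. Among them, 3 had a smaller Scnn1b-Tg level than Il1a and 8 a smaller WT level. The distance of 469 bp in the table refers to a transcript that starts at 129309130. In the RefSeq annotation of GRCm38.p6, none of the 3 Il1a transcripts starts there, and the curated one starts at 129309972, which places the DMR 1311 bp downstream. Of the 2 predicted transcripts, one starts 903 bp from the DMR and so within 1 kb, and the other 1525 bp from it. It lay in intron 2 (129307932 to 129309054) of all 3 transcripts, 640 bp beyond the start of the coding sequence, with exon 2 (129309055 to 129309109) upstream of it and exon 3 (129307883 to 129307931) downstream. By this annotation the region lies within the gene. The 300 bp window around the curated start, from 250 bp before it to 50 bp after it, holds 5 CpGs and no part of the DMR.

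Il18 was the only member with increased methylation. Its DMR of 239 bp and 5 CpGs had a deposited level of 0.579 in Scnn1b-Tg cells and 0.307 in WT cells, a difference of 0.272 or 88.5% of the WT level. Of all DMRs, 27.1% were higher in Scnn1b-Tg AMs, and of the 513 DMRs annotated to introns, 24.2% were. Within the 522 higher DMRs its difference held position 91 by size. Both of its levels lay below the medians of the higher DMRs, which were 0.691 in Scnn1b-Tg cells and 0.470 in WT cells.

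The Il18 region lay in an intron of all 8 RefSeq transcripts of the gene (50565527 to 50575267 in the 3 curated ones). The distance of 5011 bp in the table is measured from a start at 50565369, while the curated transcripts start at 50554700, or 15.7 kb upstream of the DMR. It stood 4655 bp before the first coding base of the curated transcripts, and in the GENCODE annotation 1 transcript starts 5006 bp upstream of it, at 50565374 and so near the start used in the table, and 2 start 4655 bp downstream. The window around the curated Il18 start holds 1 CpG, against a median of 7 over 32851 RefSeq promoter windows of that length. Few CpGs could thus be measured in that window. Windows around the other starts named here were not counted.

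Il1r1, which encodes the receptor that IL-1α and IL-1β share, carried the shortest of the 4 regions and the smallest difference. Its DMR of 123 bp and 5 CpGs had a deposited level of 0.285 in Scnn1b-Tg cells and 0.484 in WT cells, a difference of -0.199 or -41.1% of the WT level. By absolute size this held position 1525 of 1926. Of the DMRs annotated to introns, as those of Il1r1 and Il1rl2 were, 75.8% were lower. Like Il1a, it lay at the low end of the lower DMRs, with 76 of the 1404 below it by Scnn1b-Tg level and 47 by WT level. Among the 389 lower DMRs annotated to introns, 27 had a smaller Scnn1b-Tg level and 12 a smaller WT level, beside medians of 0.558 in Scnn1b-Tg cells and 0.818 in WT cells.

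Il1r1 has 2 curated starts, and the DMR is placed differently by each. It was 46.7 kb downstream of the first, at 40225080, and 5156 bp downstream of the second, at 40266586, which is the one the table used. The region fell in intron 1 of both curated transcripts and of 10 of the 14 RefSeq transcripts in all, and in intron 4 of 1 predicted transcript. In the remaining 3, also predicted, it was covered whole by exon 2 (40271736 to 40271921). The promoter window at the second start holds 14 CpGs and that at the first holds 5, and neither overlaps a DMR.

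Il1rl2 had the largest difference of the 4 and the highest levels. Its DMR of 248 bp and 6 CpGs had a deposited level of 0.587 in Scnn1b-Tg cells and 0.884 in WT cells, a difference of -0.296 or -33.5% of the WT level. This was position 251 of 1926 by absolute size and 206 of the 1404 lower DMRs. Its levels were near those of most lower DMRs, since 72.4% of them had a smaller WT level and 55.3% a smaller Scnn1b-Tg level.

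The Il1rl2 region is not in the gene it was assigned to. It lay 17718 bp upstream of the assigned start and outside all 5 RefSeq transcripts of Il1rl2. All 14 Il1r1 transcripts span it, with the region in intron 8 of 10 of the curated ones. The authors' annotation also names an intron while giving Il1rl2 as the gene with the nearest start. Such a position was not rare but not typical: 187 of 1926 DMRs (9.71%) lay inside another protein-coding gene and outside their assigned one, and 566 of the 1816 DMRs whose assigned gene is in RefSeq (31.2%) overlapped its body. By position, then, Il1r1 held 2 regions of reduced methylation 34.8 kb apart, and Il1rl2 held none. Holding 2 such regions was not particular to Il1r1, since the family gene Il1rapl2, which spans 1278 kb, also held 2 lower ones.

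**Figure D2:**
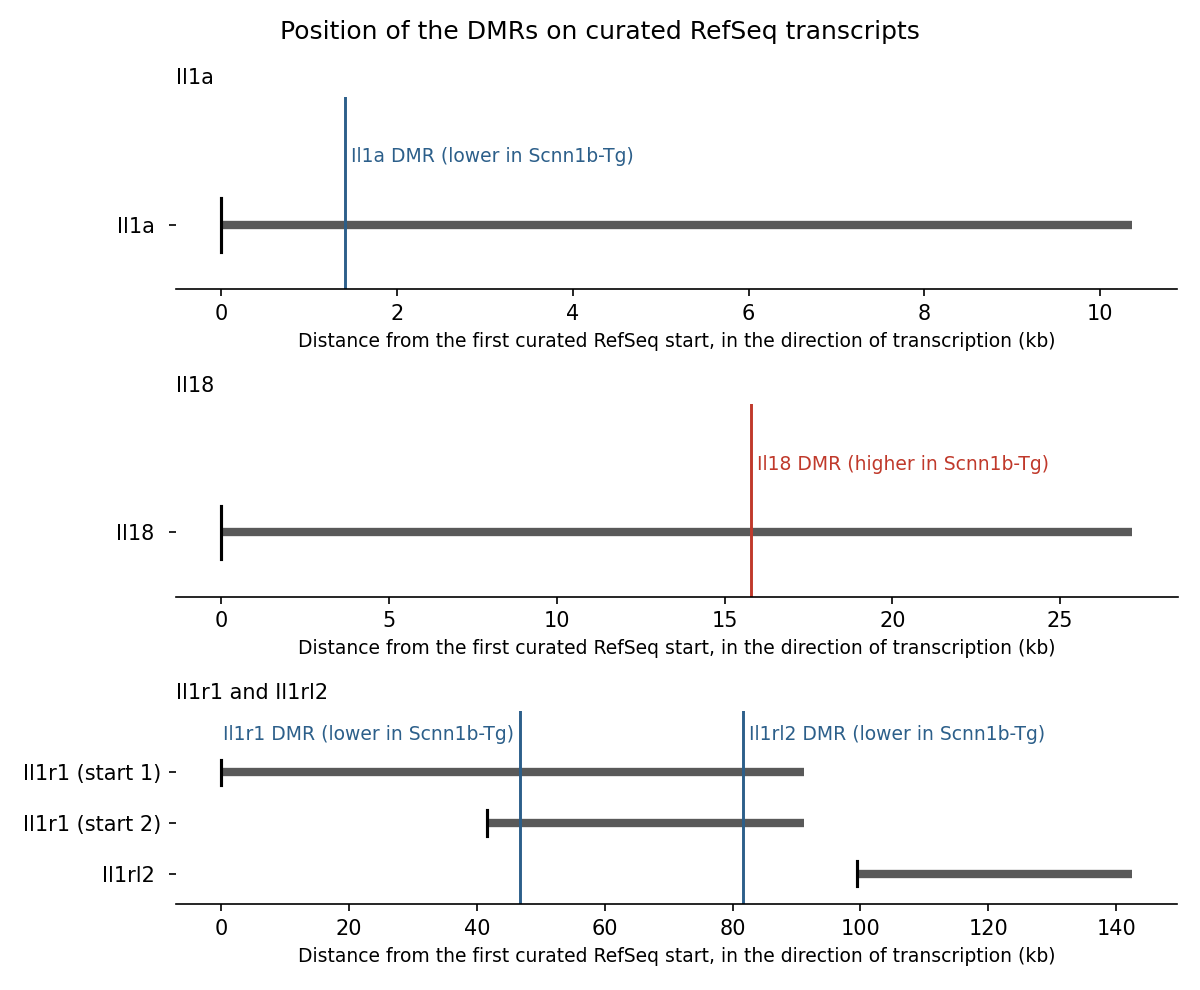
Horizontal bars are curated RefSeq transcripts, short black ticks their starts, and vertical lines the DMRs (blue, lower in Scnn1b-Tg AMs; red, higher), plotted by distance in kb from the first curated start. The Il1a DMR lies 1.31 kb into the gene, the Il18 DMR 15.7 kb, and the DMRs assigned to Il1r1 and Il1rl2 46.7 and 81.6 kb past the first Il1r1 start, both inside Il1r1.

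In both genotypes Il1a and Il1r1 were the closest pair of the 3 lower regions. Il1a minus Il1r1 was -0.104 in Scnn1b-Tg cells and -0.0697 in WT cells. Il1a minus Il1rl2 was -0.406 in Scnn1b-Tg cells and -0.470 in WT cells. Il18 and Il1rl2 had almost the same level in Scnn1b-Tg AMs (0.579 and 0.587), while in WT AMs Il18 minus Il1rl2 was -0.577.

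**Figure D3:**
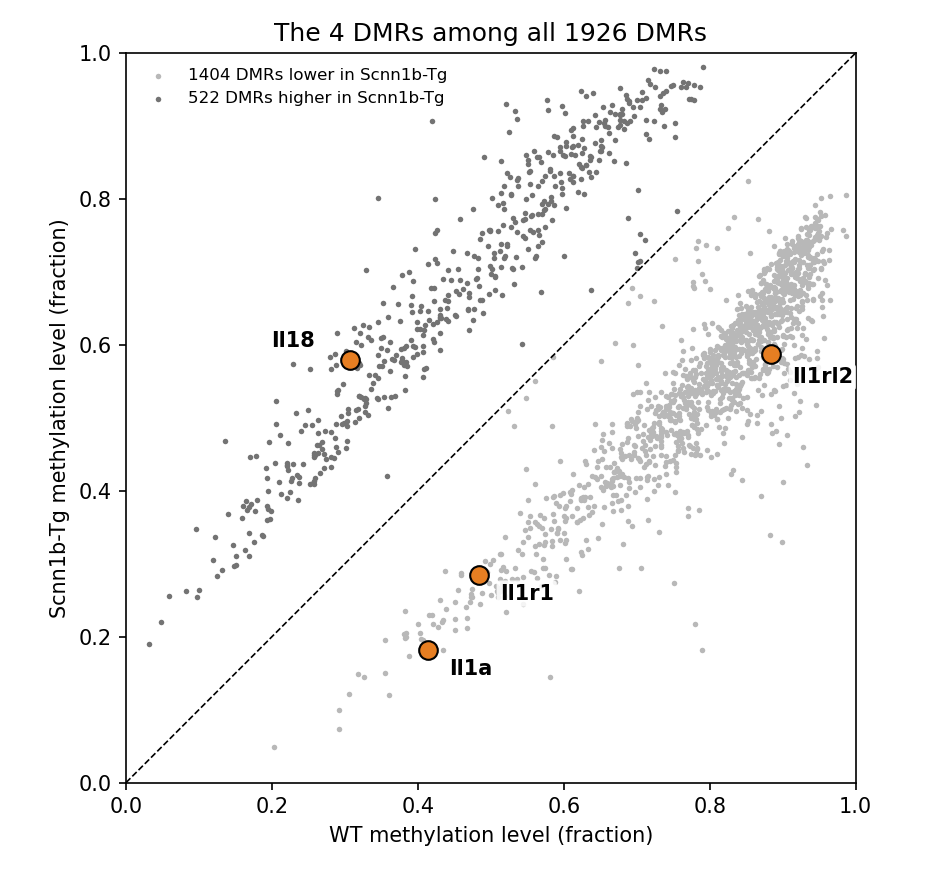
Each point is 1 of the 1926 DMRs, with its Scnn1b-Tg level (fraction) on the vertical and its WT level on the horizontal axis; the dashed line marks equal levels. Il1a (0.181 against 0.414) and Il1r1 (0.285 against 0.484) lie at the sparse low end of the DMRs reduced in Scnn1b-Tg AMs, and Il1rl2 (0.587 against 0.884) within their dense upper part.

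The CpGs of the 4 regions were unevenly spaced. All 1926 DMRs start and end on a CpG, so CpGs at both ends are no trait of these 4. Each of the 4 also had a wide CpG-free stretch between them, as the capitals show for the 3 printed sequences. The widest gap spanned 138 bp in Il1a (69.0% of the region), 195 bp in Il18 (81.9%), 96 bp in Il1r1 (78.7%) and 192 bp in Il1rl2 (77.7%). The median over all DMRs was 48.7%, and the 4 shares stood at the 84.7th to the 94.8th percentile. Set only against DMRs whose CpG number was within 2 of their own, they stood at the 90.9th to the 93.5th. The 5 CpGs at one end of the Il1a region lay 4 to 11 bp apart, and the last CpG of Il1r1 stood alone. The level given for each region therefore averages over CpGs on both sides of a wide gap, and the table does not give the sides apart.

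**Figure D4:**
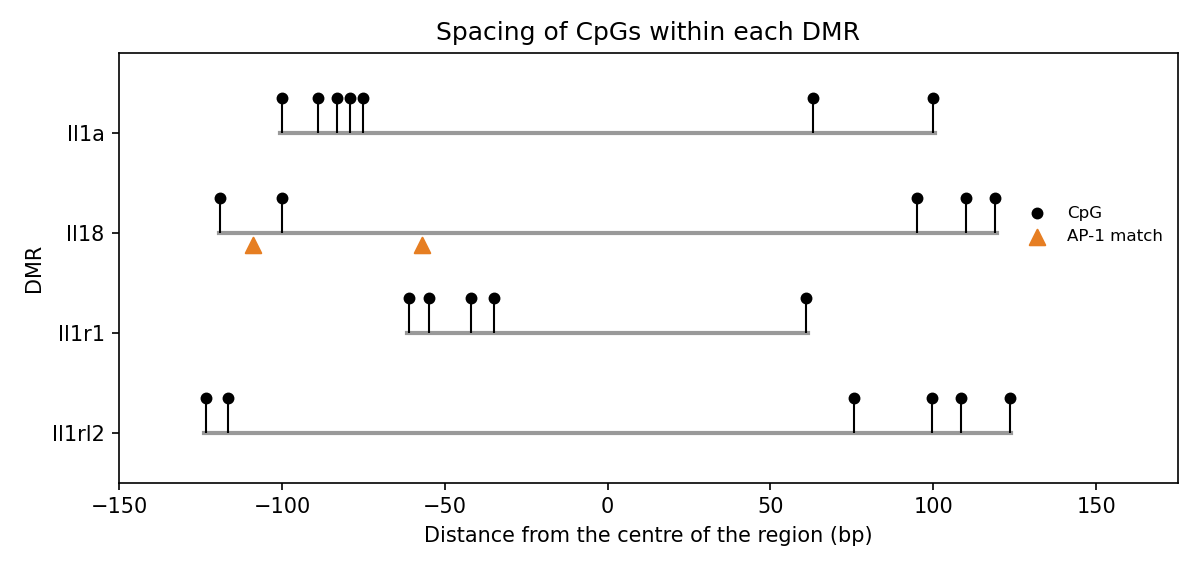
Lollipops mark the CpGs of each DMR by distance in bp from the centre of the region, and triangles below the line mark matches to the AP-1 motif. All 4 regions have CpGs at both ends, as every DMR does, and an empty stretch of 96 to 195 bp between them. Only Il18 has motif matches, 2 in all.

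The surroundings differed between the regions. The Il1a region lay in CpG-poor DNA, with 2 and 4 CpGs in the 1 kb on its sides of lower and higher coordinates, and nearest outside CpGs 381 and 364 bp away. Il1r1 had 11 and 12 CpGs on those sides, and Il18 had 9 and 3. Il1rl2 had 4 on one side and 33 on the other, and that richer side was 100% repeat sequence by the soft-masking of the reference. Within the regions, repeats made up 87.1% of Il1rl2, 35.8% of Il18 and 0% of Il1a and Il1r1, beside a median of 38.6% over all DMRs. CpG density was 3.47 per 100 bp in Il1a, 2.08 in Il18, 4.03 in Il1r1 and 2.41 in Il1rl2 (median of all DMRs 3.21).

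The sequence of Il18 holds a repeat at its end of higher coordinates, where 3 of its CpGs lie. The longest word that occurs there more than once has 15 bases:
Il18 repeated word: gctcactcctgtccc
The copies start at bases 200 and 216 of the region. The CpGs at bases 215 and 230 lie at the joins of this tandem unit and its truncated continuation. The last CpG, at base 239, lies where that continuation stops, at the end of the region. Only copies that do not overlap each other were searched. On that count, the longest repeated words of the other regions shown had 7 bases in Il1a and 5 in Il1r1. Longer words in overlapping copies, as in short tandem repeats, were not counted. Il18 also contains a run of 12 T in its CpG-free middle. The part of such repeats in the measured levels was not tested.

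Consensus sequences of 11 transcription factor motifs were searched on both strands of each region. AP-1 (TGANTCA), the factor formed by Fos and Jun proteins, had 2 matches in Il18, TGAGTCA at bases 8 to 14 and TGACTCA at bases 60 to 66. Neither covers a CpG. Of all 1926 DMRs set to the same length of 239 bp, 6.39% held at least 1 such match. The other 10 motifs had no match in Il18, and Il1a, Il1r1 and Il1rl2 had no match to any of the 11. The other motifs were C/EBP (TTGCNNAA, in 11.5% of DMRs at that length), PU.1 (AGGAAGT, 6.33%), STAT (TTCNNNGAA, 9.45%), the E-box with a CpG (CACGTG, 4.88%), the hypoxia response element (ACGTG, 16.9%, and contained in the E-box), the CRE core (TGACG, 12.9%), and, by name, NF-kB (3.89%), IRF (4.62%), STAT6 (6.75%) and CTCF, whose strict consensus was in 0% of the DMRs. A match describes the letters in the window and not binding.

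Among the 21 ligand, receptor and decoy genes of the family, 5 had a DMR assigned to them (23.8%), beside 5.89% of 21774 RefSeq protein-coding genes. The 4 members were chosen because they had one, so this count is given as a description. Of 10 ligand genes, Il1a was lower and Il18 higher. Of 11 receptor and decoy genes, 3 had a DMR assigned to them. All 3 DMRs were lower in Scnn1b-Tg AMs, as were 72.9% of all DMRs, so nothing is read from that count. By position, 2 of the 11 genes overlapped a DMR, Il1r1 and Il1rapl2. The assigned gene besides Il1r1 and Il1rl2 was Il1rapl2, a receptor-like gene with a role in neurons. Its assigned region on chromosome X (137874203 to 137874315, 4 CpGs) had a deposited level of 0.329 in Scnn1b-Tg cells and 0.601 in WT cells. It lay 303 kb from the start of a gene that spans 1278 kb. By position that gene held 2 DMRs, both lower in Scnn1b-Tg AMs, and the other was assigned to Nrk.

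The other genes of the family had no DMR assigned to them. Il1b, the other classical IL-1 ligand, lies beside Il1a, and its nearest DMR was the Il1a region itself, 55.9 kb away. Il1rn, which encodes the receptor antagonist, and the IL-36 genes Il36a, Il36b, Il36g and Il36rn share a cluster of 198 kb with Il1f10 on chromosome 2, and no DMR fell within it or within 1 Mb on either side. Il33, an alarm signal of epithelial cells, was 1668 kb from the nearest DMR. The ligands of the receptor encoded by Il1rl2 therefore had no called region, and of the IL-18 system only the ligand gene had 1.

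On chromosome 1, 6 receptor genes lie side by side over 467 kb, and the only DMRs in that stretch were the 2 inside Il1r1. The distance to the nearest DMR was 147 kb for the decoy receptor gene Il1r2, 98.0 kb for Il1rl1, which encodes the IL-33 receptor, 159 kb for Il18r1 and 208 kb for Il18rap, which encode the IL-18 receptor chains. Elsewhere in the genome, Il1rap, the shared accessory chain, was 209 kb from a DMR, the inhibitory receptor gene Sigirr 33.6 kb, Il1rapl1 420 kb and Il18bp, which encodes the IL-18 binding protein, 931 kb. A gene without a DMR had no region past the calling thresholds, which does not show equal methylation in both genotypes.

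Downstream genes of the pathway were counted in the same way, beside the share of 5.89% of all protein-coding genes. For processing and release of the cytokines, 2 of 16 genes had a DMR (12.5%). At Capn1, a calpain subunit of the protease class that trims IL-1α, the level was 0.630 in Scnn1b-Tg cells and 0.839 in WT cells, 4.99 kb upstream of the gene. At Nlrp1a, an inflammasome sensor, it was 0.682 in Scnn1b-Tg cells and 0.934 in WT cells, 630 bp past the gene's end. The protease gene Casp1, the sensor gene Nlrp3, the adaptor gene Pycard and the pore gene Gsdmd had none. For signalling from the receptor, 1 of 20 genes had a DMR (5%), Peli1, a ubiquitin ligase, with 0.807 in Scnn1b-Tg cells and 0.598 in WT cells at 47.1 kb from the gene. Together these were 3 of 36 genes (8.33%), 2 with a lower and 1 with a higher DMR. All 3 DMRs lay outside the gene bodies, where 31.2% of DMRs overlapped the assigned one, and had 4 CpGs each, as did 826 of the 1926 DMRs.

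Apart from the pair within Il1r1, the nearest other DMR to a member region was 122 to 345 kb away. The neighbours of Il1a by coordinate were 867 kb away on the lower and 266 kb on the higher side, and both were higher in Scnn1b-Tg AMs. The closer of these was assigned to Sirpa, with 0.467 in Scnn1b-Tg cells and 0.268 in WT cells over 20 CpGs. The nearest DMR to Il18 was 122 kb away on the higher side, assigned to Dixdc1, and higher in Scnn1b-Tg AMs like Il18 itself (0.660 against 0.441 in WT AMs). On the lower side the next DMR, assigned to 4931429L15Rik, was 4219 kb away. It was lower in Scnn1b-Tg AMs (0.289 in Scnn1b-Tg cells and 0.495 in WT cells). Of the outer neighbours of the Il1r1 pair, the region assigned to Map4k4, on the lower side, was 345 kb away and higher in Scnn1b-Tg AMs (0.305 in Scnn1b-Tg cells and 0.119 in WT cells). The one on the higher side, assigned to 4930448I06Rik, was 743 kb away and lower like the pair (0.576 in Scnn1b-Tg cells and 0.856 in WT cells). The median gap between neighbouring DMRs was 884 kb. That median is over single gaps, while the distances of 122 to 345 kb are to the nearer side, so they are not compared.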

How the data were processed

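According to the study's methods and the submitters' notes, Trimmomatic (0.36) trimmed the tWGBS reads, BWA (0.7.8) placed them on mm10, Picard marked duplicates, MethylDackel called CpGs, bsseq smoothed each sample and DSS called DMRs with minimum CpG number, length and difference (0.1). Smoothing makes levels of nearby CpGs dependent. The deposited methylation levels are fractions that the authors averaged per region and genotype. Depth per region is unknown, and intervals could not be given. The table's own difference and area statistic columns hold the authors' comparison and were not used. 37 of 1926 regions have an absolute difference under 0.1 and were kept. 0 columns of other samples were left out.

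Differences were recomputed as Scnn1b-Tg minus WT. Regions were placed on RefSeq (GRCm38.p6) and GENCODE transcripts with Python 3.11.15, pandas 2.3.3 and pysam 0.24.0, and figures drawn with matplotlib 3.10.9. All 1926 regions start and end on a reference CpG, and CpG numbers of table and reference are equal in 1707. Promoter windows came from RefSeq, and all 4 genes matched. The code was tested on simulated data. Genes named were the members, every listed gene with a DMR, and the family genes without one, with their distance, while the 4 pathway genes without a DMR and the genes of neighbouring DMRs were added after their values were seen. Lists held 10 ligands, 11 receptors and decoys, 16 processing, 20 signalling and 3 sort genes. Members and lists were chosen with earlier results of these data known. The sequence of the Il1rl2 region is not reported here.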

Additional observations from a re-analysis of the deposited data

How the results depend on the processing

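Of 33 alternative values computed, 25 stayed within 1.5 times the main one, 2 of them counts of 2 in place of 3 and so at that limit, and 8 moved further. Requiring at least 10 CpGs left 0 of the 21 family genes with a DMR and 0 lower member regions, since the 4 regions hold 5 to 7 CpGs and Il1rapl2 has 4. Measured to the nearest GENCODE start, Il1a was 1311 bp from a TSS in place of 469 bp. To the nearest RefSeq start with predicted transcripts, an alternative chosen after seeing the data, Il1a was 903 bp and Il18 8318 bp away, the second in place of 5011 bp. Extending regions by 100 bp on each side gave 2 motifs with a match in Il1a (AP-1 and the CRE core), 1 in Il1r1 (STAT6) and 1 in Il1rl2 (PU.1), each 0 before. The share of all DMRs with a match is not given at the extended lengths, so nothing is read from these added matches. Counting genes by position gave 4 family genes within 10 kb of a DMR and 6 within 50 kb, and a minimum difference of 0.2 gave 4, without Il1r1. The direction from the area statistic was not run, since that column holds the authors' comparison. No paired analysis was possible because the table holds no values per sample, although 3 replicate numbers occur in both genotypes, and leaving out single samples was not possible for the same reason. With 1 mean per genotype and unknown depth, the spread behind each difference is unknown.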
